A study of Mus musculus with 12 samples.

Results

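The genes Fgf23, Vmn2r3, Cnpy1, Sprr1a and Dmbt1 were followed through the livers of 12 male C57BL/6 mice, 5 genes of the 47729 that were counted. They were chosen from the counts themselves, because none of them had a single read in the 4 healthy livers and all had reads in the livers of vehicle-treated STAM mice. The separation of those groups is therefore how these genes were picked, and it is given as a description without a test. Healthy mice were wild-type animals that received vehicle. STAM mice were made diabetic as neonates with streptozotocin, which destroys the islets, and were fed a high-fat diet from 4 weeks of age, which produces a fatty and inflamed liver as a model of non-alcoholic steatohepatitis (NASH). The STAM mice received vehicle or I-BET151, an inhibitor of the bromodomains of the BET chromatin readers, at 10 mg/kg by mouth each day from week 6 to week 9, when the livers were taken (4 mice per group). The vehicle was methylcellulose, whereas I-BET151 was suspended in hydroxypropyl methylcellulose with Tween 80, so the compound and its suspending agent cannot be told apart. Neither can the toxin and the diet, which healthy mice did not receive.

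These genes are known from tissues other than liver. Fgf23 encodes a hormone that bone cells release and that acts on the kidney through FGF receptors and the co-receptor Klotho (Kl), lowering phosphate and active vitamin D. Sprr1a encodes a small proline-rich protein that is cross-linked into the envelope of squamous epithelial cells and is also known from injured tissues, and Dmbt1 encodes a large secreted protein built from scavenger receptor cysteine-rich (SRCR) domains that binds microbes at mucosal surfaces. Cnpy1 belongs to the canopy family of endoplasmic reticulum proteins and is known from the developing midbrain and hindbrain, and Vmn2r3 encodes a receptor of the vomeronasal organ, which senses pheromones.

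In the GENCODE M21 annotation of build GRCm38, Fgf23 (ENSMUSG00000000182) lies at chr6:127072902-127081408 on the plus strand and Dmbt1 (ENSMUSG00000047517) at chr7:131032053-131121630 on the plus strand. Vmn2r3 (ENSMUSG00000091572) lies at chr3:64257215-64289709, Sprr1a (ENSMUSG00000050359) at chr3:92483952-92485895 and Cnpy1 (ENSMUSG00000044681) at chr5:28200819-28245806, all on the minus strand. Because reads appeared at genes that had none, the sequence around the start is shown for the 3 genes whose RefSeq start lay within 18 bases of the start of the GENCODE gene. Each line runs 5′ to 3′ on the strand of the gene from 250 bases before the start to 50 bases after it, from RefSeq on build GRCm38.p6. Sprr1a is shown from chr3:92485832-92486131 and Cnpy1 from chr5:28245739-28246038, both on the minus strand, and Fgf23 from chr6:127072652-127072951 on the plus strand. Capitals mark matches, on either strand, to the AP-1 motif TGANTCA, to the TATA box motif TATAAA, to the STAT motif TTCNNNGAA or to the consensus known as the NF-kB motif.
Sprr1a: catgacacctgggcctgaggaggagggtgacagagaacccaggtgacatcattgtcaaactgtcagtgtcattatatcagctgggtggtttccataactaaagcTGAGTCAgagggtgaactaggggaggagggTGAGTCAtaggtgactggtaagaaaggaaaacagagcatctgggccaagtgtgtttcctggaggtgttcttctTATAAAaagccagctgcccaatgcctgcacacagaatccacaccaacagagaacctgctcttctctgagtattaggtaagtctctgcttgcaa
Cnpy1: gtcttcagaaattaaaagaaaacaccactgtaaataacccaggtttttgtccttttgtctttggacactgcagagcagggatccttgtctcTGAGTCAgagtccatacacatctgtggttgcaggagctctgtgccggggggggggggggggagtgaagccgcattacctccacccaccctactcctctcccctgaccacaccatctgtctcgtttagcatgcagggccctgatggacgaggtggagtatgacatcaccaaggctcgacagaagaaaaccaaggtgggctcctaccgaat
Fgf23: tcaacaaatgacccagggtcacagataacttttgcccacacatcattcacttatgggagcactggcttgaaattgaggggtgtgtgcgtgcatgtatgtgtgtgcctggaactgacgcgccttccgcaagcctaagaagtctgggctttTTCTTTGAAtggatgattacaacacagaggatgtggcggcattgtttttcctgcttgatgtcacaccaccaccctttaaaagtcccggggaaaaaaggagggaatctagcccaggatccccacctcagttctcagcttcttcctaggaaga

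The Sprr1a window held 2 matches to the AP-1 motif, both reading TGAGTCA and beginning 146 and 116 bases before the start, and 1 match to the TATA box motif that began 43 bases before it. The Cnpy1 window held the same TGAGTCA, beginning 159 bases before the start, and no TATA box motif. The Fgf23 window held neither and had 1 match to the STAT motif that began 101 bases before the start. Of 32851 promoter windows of this length, 7.81% held the AP-1 motif, 13.6% the TATA box motif, 8.3% the STAT motif and 1.63% the NF-kB motif. The window at the RefSeq start of Vmn2r3, which lay 2292 bases from the start of the GENCODE gene, and that at the other RefSeq start of Cnpy1 held none of these motifs. A match is a run of letters and not a measured site, and the counts give no position of a read within a gene, so the starts that were used are not known.

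Library size differed little between the groups, with totals of 39528620 to 49485066 reads on genes in healthy mice, 40279918 to 50378953 in vehicle mice and 34711229 to 53365596 in I-BET151 mice. Levels are given as read counts and as CPM, the count scaled to a fixed size of the TMM-normalized library. I-BET151 mouse 3 stood apart, with a TMM factor of 1.609 beside 0.7696 to 1.108 in the other mice and a summed level of 8 hepatocyte markers of 20300 CPM beside 71000 to 87100 CPM in the other I-BET151 mice. That sum was 107000 to 126000 CPM in healthy and 53400 to 73400 CPM in vehicle mice, so it also moved with the groups by which the 5 genes were chosen, and 1 of the 8 markers, Cyp3a11, a drug-metabolizing enzyme, fell (log2 fold change -2.42; edgeR, adjusted p = 0.00339). The part of hepatocyte content in the levels of the 5 genes was not tested. The study left out 1 I-BET151 sample for low gene counts, which its methods do not name, and all 4 were used here. I-BET151 mice 3 and 2 had the lowest totals of that group, at 34711229 and 35171038 reads. Mouse 2 had the fewest genes with a read in that group (22293) and mouse 3 the most (24304). Lane numbers in the file labels placed vehicle and I-BET151 mice together in lanes 2, 6 and 7, and values within lanes are given where they bear on a comparison.

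Fgf23 had 0 reads in each of the 4 healthy livers. The vehicle mice had 9, 12, 91 and 89 reads, or 0.216, 0.229, 1.76 and 1.89 CPM, and the I-BET151 mice had 66, 29, 69 and 29 reads, or 1.19, 0.874, 1.24 and 0.666 CPM. Vehicle mice 1 and 2 were therefore low and vehicle mice 3 and 4 were high, with the 4 I-BET151 mice all between them. The mean level was 1.02 ± 0.926 CPM in vehicle mice and 0.992 ± 0.270 CPM in I-BET151 mice (SD, n = 4 each). In healthy mice a count of 0 over 4 libraries allows a level of up to 0.0195 CPM, taken as 3 reads over those libraries together, so the vehicle mean was at least 52.5-fold higher and the I-BET151 mean at least 50.9-fold higher than in healthy mice. These limits cover counting error only.

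Vmn2r3 likewise had 0 reads in every healthy liver. The vehicle mice had 9, 14, 121 and 24 reads, or 0.216, 0.267, 2.34 and 0.509 CPM. The I-BET151 mice had 109, 28, 47 and 29 reads, or 1.96, 0.843, 0.843 and 0.666 CPM. In each group 1 liver stood far above the rest, vehicle mouse 3 and I-BET151 mouse 1, and the groups overlapped. The means were 0.833 ± 1.01 CPM in vehicle mice and 1.08 ± 0.596 CPM in I-BET151 mice (SD, n = 4 each), at least 42.7-fold and 55.4-fold above the limit in healthy mice. Vehicle mouse 3 alone carried 70.2% of the summed vehicle level of this receptor gene, and without it the vehicle mean was 0.331 ± 0.157 CPM (SD, n = 3), at least 17-fold above the limit in healthy mice, and no I-BET151 mouse fell at or below that mean.

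Cnpy1 was the gene of the 5 whose I-BET151 livers lay lowest against vehicle. Healthy livers had 0 reads, the vehicle mice had 12, 17, 92 and 36 reads, or 0.288, 0.324, 1.78 and 0.764 CPM, and the I-BET151 mice had 9, 6, 29 and 6 reads, or 0.162, 0.181, 0.52 and 0.138 CPM. I-BET151 mice 1, 2 and 4 lay below every vehicle mouse, while I-BET151 mouse 3, the library that stood apart, lay within the vehicle range. The means were 0.789 ± 0.695 CPM in vehicle mice and 0.250 ± 0.181 CPM in I-BET151 mice (SD, n = 4 each), at least 40.5-fold and 12.8-fold above the limit in healthy mice. Without vehicle mouse 3 the vehicle mean was 0.459 CPM (at least 23.5-fold), and without I-BET151 mouse 3 the treated mean was 0.160 CPM (at least 8.22-fold). Reads from this canopy gene were thus still present in all 4 I-BET151 livers, at 6 reads or more.

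Sprr1a, the squamous envelope gene, had 0 reads in every healthy liver, and the vehicle mice had 23, 15, 92 and 23 reads, or 0.553, 0.286, 1.78 and 0.488 CPM. The I-BET151 mice had 64, 26, 19 and 13 reads, or 1.15, 0.783, 0.341 and 0.299 CPM. Vehicle mouse 3 was again the highest vehicle mouse, and all 4 I-BET151 mice fell inside the vehicle range. The means were 0.777 ± 0.678 CPM in vehicle mice and 0.644 ± 0.404 CPM in I-BET151 mice (SD, n = 4 each), at least 39.8-fold and 33.0-fold above the limit in healthy mice. Without vehicle mouse 3 the vehicle mean was 0.442 CPM, at least 22.7-fold above it.

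Dmbt1, the mucosal scavenger protein, had 0 reads in healthy livers and the most even levels of the 5 genes in vehicle mice, with 28, 20, 62 and 32 reads, or 0.673, 0.381, 1.2 and 0.679 CPM. The I-BET151 mice were the most uneven, with 154, 8, 2 and 40 reads, or 2.77, 0.241, 0.0359 and 0.919 CPM. I-BET151 mouse 1 lay above every vehicle mouse, mice 2 and 3 lay below every vehicle mouse, and mouse 4 lay inside the vehicle range. The highest and lowest livers differed 77.4-fold in I-BET151 mice and 3.15-fold in vehicle mice. The means were 0.733 ± 0.341 CPM in vehicle mice and 0.993 ± 1.25 CPM in I-BET151 mice (SD, n = 4 each), at least 37.6-fold and 50.9-fold above the limit in healthy mice. Without I-BET151 mouse 1 the treated mean was 0.399 CPM, at least 20.5-fold above it. The annotated span of Fgfr2 on the opposite strand contains Dmbt1. Whether the counting used strand is not given in the sources used here, so reads of the 2 genes may not be fully separated, which was not tested.

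**Figure D1:**
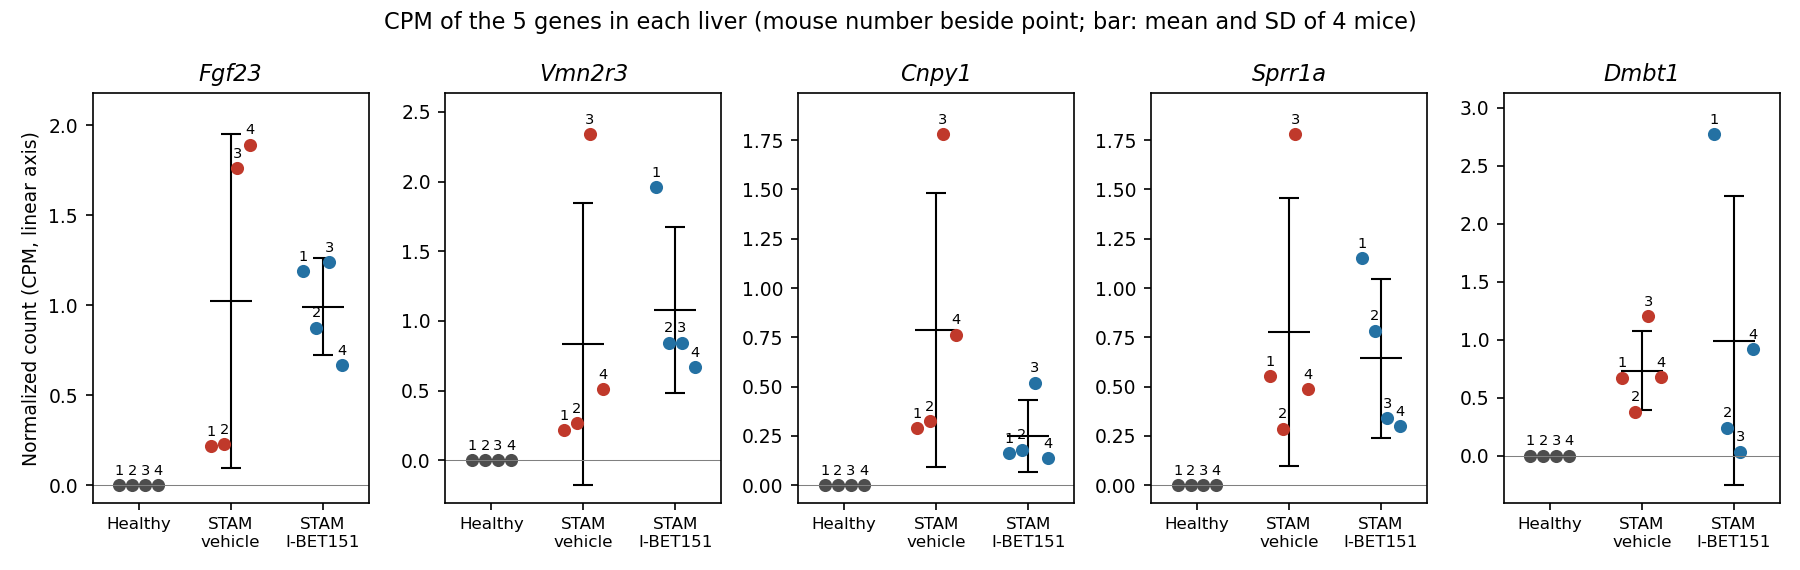
Normalized level in CPM (linear vertical axis, a separate scale per panel) of Fgf23, Vmn2r3, Cnpy1, Sprr1a and Dmbt1 in each healthy, STAM vehicle and STAM I-BET151 liver. Points are mice with their number, and bars give the mean and SD of 4 mice. All healthy livers sit at 0, vehicle mouse 3 is the highest vehicle point except for Fgf23, and the treated points overlap the vehicle points in every panel.

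Genes that went from no reads in healthy livers to reads in every STAM vehicle liver were few. Of 22520 genes with 0 reads in all healthy livers, 108 (0.48%) had at least 1 read in each of the 4 vehicle livers, and in the opposite direction 10 genes had 0 reads in all vehicle livers and at least 1 in every healthy liver. Detection also differed, with 21189 to 22130 genes with a read in healthy and 22863 to 23637 in vehicle livers. Its part in these counts was not tested. The median of the 108 genes was 10.5 reads summed over the 4 vehicle livers, whereas the 5 genes described here had 142 to 201. The closest genes outside them were Car4, a membrane carbonic anhydrase, with 78 reads, and Sptlc3, a subunit of the enzyme that begins sphingolipid synthesis, with 67. On the scale of the fitted log2 fold change, which for a gene at 0 depends on the prior count and is no bound, Dmbt1 was last inside at 8.04, and Car4 (7.17), Sptlc3 (7.02), the skeletal muscle actin Acta1 (6.56), the small proline-rich gene Sprr2a1 (6.56) and 5730585A16Rik (5.99) followed. With vehicle above healthy in every mouse the 5 genes did what they were chosen for, as did 14.2% of the 16823 genes tested.

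The I-BET151 livers had no part in the choice, and reads of all 5 genes were present in all 4 of them. Of the 108 genes, 38 (35.2%) had at least 1 read in every I-BET151 liver, and of the other 103 genes 33 did. Those 103 had at most 78 reads summed over vehicle livers, against at least 142 for each of the 5 genes. The genes that followed the 5 in fitted fold change also had reads in every I-BET151 liver. Their lowest counts there were 9 for Car4, 4 for Sptlc3, 13 for Acta1, 7 for Sprr2a1 and 1 for 5730585A16Rik. The lowest count of any of the 5 genes in an I-BET151 liver was 2 reads, for Dmbt1 in mouse 3. In total 101 genes (0.448% of the 22520) had 0 reads in healthy livers and at least 1 in every I-BET151 liver.

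Per kilobase of annotated exon in vehicle livers, the order of the levels was Sprr1a at 0.963 ± 0.842, Fgf23 at 0.564 ± 0.511, Cnpy1 at 0.135 ± 0.119, Dmbt1 at 0.104 ± 0.0483 and Vmn2r3 at 0.0479 ± 0.0582 CPM per kilobase (SD, n = 4). No neighbouring pair in this order differed by more than the spread between mice. In I-BET151 livers Sprr1a (0.799 ± 0.501) and Fgf23 (0.547 ± 0.149) again led, followed by Dmbt1 (0.141 ± 0.177), Vmn2r3 (0.062 ± 0.0342) and Cnpy1 (0.0427 ± 0.0308 CPM per kilobase). Exon lengths of 806 bases for Sprr1a to 17411 bases for Vmn2r3 are those of GENCODE M21 with all transcripts merged, which may be longer than the transcripts in liver.

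The question of whether BET inhibition changed these genes was put to I-BET151 against vehicle livers with edgeR's quasi-likelihood test, adjusted over all 16823 genes tested. The vehicle livers were chosen for having reads, which favours a lower value in the treated livers. None of the 5 genes passed an adjusted p of 0.1 with edgeR, nor with DESeq2. An unadjusted p under 0.05 (edgeR) was found for 1 of them, Cnpy1, and for 1460 of all 16823 genes tested. Of all genes tested, 0.351% passed, 0.0951% being higher and 0.256% lower in I-BET151 livers.

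Cnpy1 had a log2 fold change of -1.62 ± 0.65 (SE; 95% interval -3.06 to -0.18; edgeR, adjusted p = 0.510, unadjusted p = 0.0311). It was negative in each of the 20 alternative fits, and the adjusted p ranged from 0.148 without I-BET151 mouse 3, where the log2 fold change was -2.29, to 0.827. Without vehicle mouse 3 it was -0.84. Within lanes, Cnpy1 was lower in the I-BET151 mouse in 3 of 3 lanes, at 0.138 against 0.764 CPM in lane 2, 0.162 against 0.288 CPM in lane 6 and 0.52 against 1.78 CPM in lane 7. A lower level of Cnpy1 in I-BET151 livers was seen in most mice, but it did not pass the test.

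For the other 4 genes the fitted difference was smaller than its standard error. Fgf23 had a log2 fold change of -0.04 ± 0.64 (SE; 95% interval -1.46 to 1.38; edgeR, adjusted p = 0.993) and Sprr1a one of -0.27 ± 0.61 (95% interval -1.61 to 1.07; adjusted p = 0.951). Vmn2r3 had a log2 fold change of 0.37 ± 0.70 (SE; 95% interval -1.17 to 1.91; edgeR, adjusted p = 0.937) and Dmbt1 one of 0.46 ± 0.85 (95% interval -1.43 to 2.35; adjusted p = 0.937). These intervals span changes from 0.326-fold to 2.1-fold for Sprr1a and from 0.37-fold to 5.08-fold for Dmbt1, so a missed threshold does not show that treatment left the genes alone. The direction rested on single mice, since leaving out vehicle mouse 3 turned Sprr1a to 0.55 and Fgf23 to 0.35 and moved Vmn2r3 to 1.70, and leaving out I-BET151 mouse 1 turned Dmbt1 to -0.89 and Vmn2r3 to -0.10. Fgf23 also turned to 0.42 when vehicle mouse 4, to 0.11 when I-BET151 mouse 4 and to 0.0049 when I-BET151 mouse 2 was left out, and Dmbt1 moved to 0.89 when I-BET151 mouse 3 was. Within lanes the I-BET151 mouse was lower in 2 of 3 lanes for Fgf23 and Sprr1a and in 1 of 3 for Vmn2r3 and Dmbt1. Both comparisons use the same vehicle mice, so a high vehicle mouse raises the difference from healthy and lowers that of I-BET151 from vehicle at once.

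**Figure D2:**
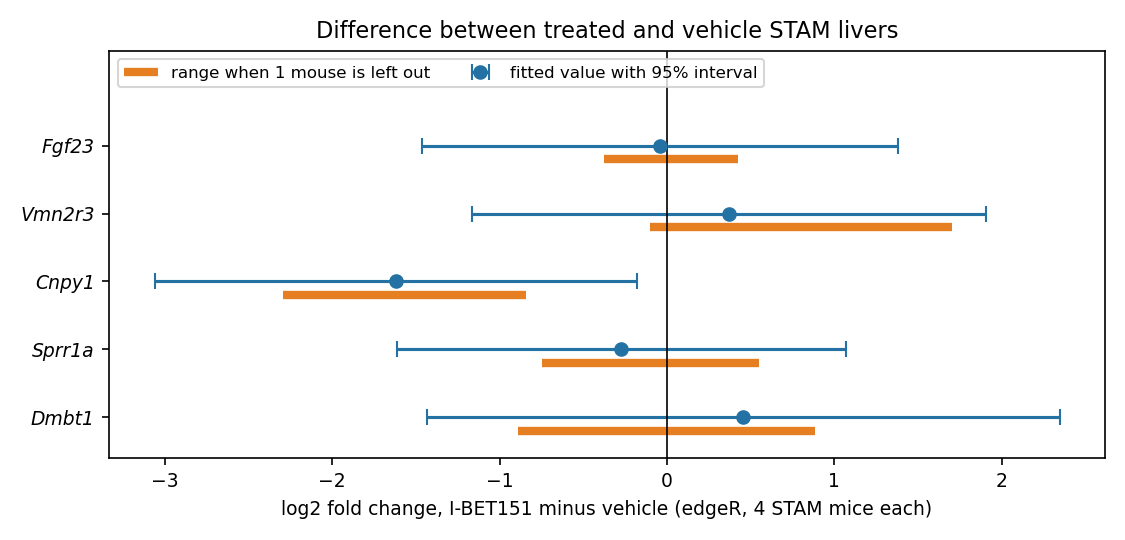
Fitted log2 fold change (horizontal axis) of I-BET151 minus vehicle STAM livers for each of the 5 genes, with points and bars for the edgeR value and its 95% interval and thick lines for the range when each of the 12 mice is left out in turn. Cnpy1 is the gene whose interval and range both lie below 0, and the other 4 cross it.

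The mouse-to-mouse pattern was shared in part. Ranked over the 8 STAM livers, vehicle mouse 3 was first or second for all 5 genes, with a mean rank of 1.4, and vehicle mice 1 and 2 had mean ranks of 6.0 and 6.4. Relative to the mean of the 8 STAM livers, vehicle mouse 3 had 3.43 times the mean of Cnpy1, 2.51 times that of Sprr1a, 2.45 times that of Vmn2r3, 1.75 times that of Fgf23 and 1.39 times that of Dmbt1. I-BET151 mouse 1 was high for Dmbt1, Vmn2r3 and Sprr1a and low for Cnpy1, at 0.312 times its mean. The 5 genes therefore did not rise and fall as a block among treated mice.

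**Figure D3:**
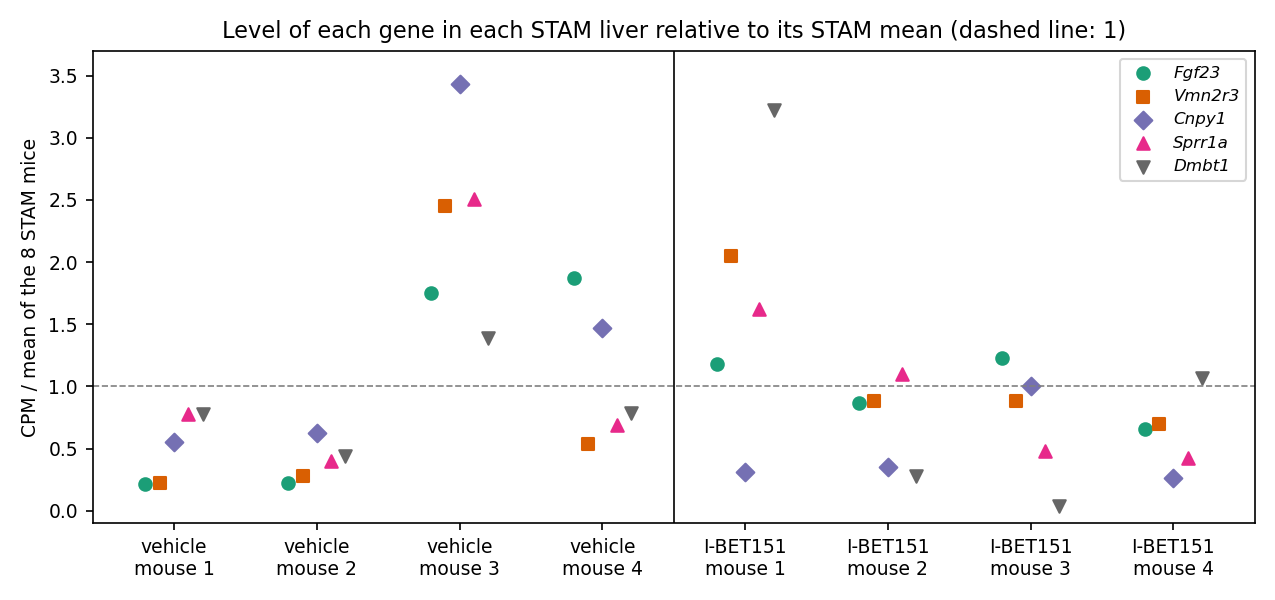
Level of each of the 5 genes in each of the 8 STAM livers, as CPM divided by the mean CPM of that gene over the 8 livers (vertical axis, no unit; dashed line at 1), with 1 symbol per gene. Vehicle mouse 3 lies above 1 for all 5 genes, and I-BET151 mouse 1 ranges from 0.312 for Cnpy1 to 3.22 for Dmbt1.

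The summed level of 11 leukocyte markers, most of it from Cd68, Adgre1 and Ptprc, was 25.1 to 37.6 CPM in healthy mice, 50.2, 57.6, 97.6 and 66.5 CPM in vehicle mice 1 to 4 and 79.9, 47.0, 45.2 and 65.5 CPM in I-BET151 mice 1 to 4. Of the 10 leukocyte markers tested, 5 rose from healthy to vehicle livers (edgeR), beside 5.72% of all genes tested, and none passed between I-BET151 and vehicle livers. Vehicle mouse 3 was the highest vehicle mouse for 7 of the 11 markers and I-BET151 mouse 1 the highest treated mouse for 9. The T cell marker Cd3e was lowest in these mice, at 0.948 CPM in vehicle mouse 3 and 0.360 CPM in I-BET151 mouse 1, and the lymphoid markers Cd79a and Nkg7 were highest in vehicle mouse 4 among vehicle mice. The sum was thus highest in vehicle mouse 3 and I-BET151 mouse 1, the mice with the most Vmn2r3, Sprr1a and Dmbt1, and the part of leukocytes in the levels of these genes was not tested. In whole liver, more cells of a type and more RNA per cell cannot be told apart. Of the bile duct markers 1 of 11 tested rose, Cldn4, a tight junction protein, a call that was lost in 11 of 20 alternative fits, and their sum was 68.8 to 100.0 CPM in healthy, 88.3 to 107 CPM in vehicle and 98.7 to 125 CPM in I-BET151 livers.

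Markers of the tissues that these genes are known from ranged from no reads to levels above those of the 5 genes. Of 8 bone matrix markers, Dmp1, Mepe and Ibsp had no reads in any liver and the 8 together had at most 0.233 CPM in any mouse, with 0.0265 to 0.106 CPM in healthy mice and 0.116 to 0.171 CPM in vehicle mice. In each STAM mouse this sum lay below the Fgf23 level, whereas healthy mice had no Fgf23 reads. Of 9 squamous markers, the keratins Krt1, Krt6a, Krt13 and Krt16 had no reads in any liver, and the sum of 1.02 to 1.81 CPM came mostly from Krt10, which did not pass in either comparison. The other 4 had few reads, Krt14 with 0 in each healthy, 1, 1, 2 and 2 in vehicle and 0, 0, 1 and 0 in I-BET151 livers. Trp63, the regulator of squamous stem cells, had 0, 0, 1 and 0 reads in healthy, 0, 6, 3 and 6 in vehicle and 3, 10, 1 and 14 in I-BET151 livers. Reads of Krt5 (3, 0, 2 and 0) and Dsg3 (2, 0, 0 and 0) were seen in vehicle livers alone, and the part of squamous cells in the level of Sprr1a was not tested. The vomeronasal channel Trpc2 had no reads in any liver, and the 7 other neuronal markers include the broadly expressed Gnai2 and Adcy3. Of these, Adcy3 was higher in vehicle livers (log2 fold change 0.95 ± 0.20, SE; edgeR, adjusted p = 0.0134). Its call was lost without healthy mouse 2 and also when the lane was added to the fit. The 8 together had 77.5 to 96.0 CPM in healthy, 81.7 to 101 CPM in vehicle and 74.3 to 112 CPM in I-BET151 livers. Of 12 intestinal and pancreatic markers 4 had enough reads to be tested, and none of these 4 passed in either comparison. Liver itself expresses Fabp2, Lgr5 and Cela1. Their sum was 78.7 to 101 CPM in healthy, 51.0 to 81.2 CPM in vehicle and 32.8 to 54.5 CPM in I-BET151 livers. The secreted defence gene Reg3b of that list had 0 reads in each healthy, 3, 9, 3 and 1 in vehicle and 4, 0, 0 and 8 in I-BET151 livers, and Reg3g had reads in 1 vehicle and 1 I-BET151 liver.

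Relatives and pathway partners of the 5 genes were read as lists, leaving the 5 genes out. Of 82 such genes 47 were tested, and at an adjusted p of 0.05 (edgeR) 11 rose from healthy to vehicle livers, or 23.4%, and none fell. Of the 11, Sprr2a1 and Sprr2a2 had fewer than 10 reads in every healthy liver, and without them 9 of 45 rose. Both reached the test through STAM livers alone. The same held for Cd5 among the 9, with 10, 3, 6 and 4 reads in healthy livers, and for Cyp27b1 among the 45. The filter thus still favours a rise in these shares. Of all genes tested, 7.1% passed, 5.72% being higher and 1.38% lower in vehicle livers. With DESeq2, which was run without the filter, 19 of 65 list genes rose, beside 1411 of all 29576 genes. None of the 11 passed when the lane was added to the fit, which left 37 calls among all genes. With the lane, the log2 fold changes of the 11 were 0.727 to 1.329 times as large as without it and their standard errors 1.316 to 2.01 times as large. Lane 2 was the 1 lane that healthy and vehicle mice shared, with 1 mouse of each, too few for a value within lanes. None of the 47 differed between I-BET151 and vehicle livers at an adjusted p of 0.1 (edgeR). An unadjusted p under 0.05 was found for 7 of them, beside 1460 of all 16823 genes tested. DESeq2 called 2, Cd5 and Cd6, both lower, beside 268 calls among 29576 genes, 174 of them lower. When I-BET151 mouse 3 was left out 3 passed with edgeR, all lower, namely Slc20a1 (log2 fold change -0.70, adjusted p = 0.0581), Sftpa1 (-1.31, adjusted p = 0.0670) and Cd5 (-1.56, adjusted p = 0.0879). That fit called 403 of 16967 genes, 248 of them lower, against 59 in the main fit.

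Of the 13 tested genes of the Fgf23 hormone axis 1 rose, a share close to the 5.72% of all genes tested. It was the phosphate transporter Slc20a1, at 125 ± 12.1 CPM against 49.0 ± 7.09 CPM in healthy and 96.9 ± 43.2 CPM in I-BET151 livers (SD, n = 4; log2 fold change, vehicle against healthy, 1.35 ± 0.24, SE; edgeR, adjusted p = 0.00527). The median log2 fold change of the list was -0.05, beside 0.0089 over all genes. The co-receptor Kl, which confers specificity for this hormone, had at most 4 reads in any liver. The receptors were present, Fgfr1 at 16.0 to 23.3, Fgfr2 at 25.1 to 26.6, Fgfr3 at 44.1 to 60.8 and Fgfr4 at 37.2 to 49.4 CPM as group means, and none passed in either comparison. Cyp27b1, which makes active vitamin D, had 3, 0, 0 and 0 reads in healthy, 9, 17, 18 and 5 in vehicle and 1, 4, 35 and 12 in I-BET151 livers. It was not called for vehicle against healthy. Since it passed the filter on low counts through STAM livers alone, its counts are a description. Among the other endocrine FGFs, Fgf15 had no reads, and Fgf21, which fasted or stressed hepatocytes secrete, had 9.96 ± 3.30 CPM in healthy, 22.1 ± 17.1 CPM in vehicle and 20.7 ± 11.7 CPM in I-BET151 livers (SD, n = 4), with an adjusted p of 0.201 for vehicle against healthy (edgeR). Klb, the co-receptor that Fgf15 and Fgf21 use, had 36.7 ± 8.31, 26.6 ± 2.94 and 24.1 ± 8.02 CPM in healthy, vehicle and I-BET151 livers (SD, n = 4) and did not pass either (edgeR, adjusted p = 0.223, vehicle against healthy).

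The other canopy genes, unlike Cnpy1, had reads in every liver, the healthy ones included. Cnpy2 had group means of 33.4 to 43.5 CPM, Cnpy3 of 29.9 to 35.1 CPM and Cnpy4 of 3.26 to 3.61 CPM, and none of the 3 passed in either comparison. The nearest gene to Cnpy1, by contrast, was the homeobox gene En2, at 28.7 kb, which patterns the midbrain and hindbrain. En2 had 2, 1, 0 and 0 reads in healthy, 4, 6, 29 and 17 reads in vehicle and 11, 4, 11 and 2 reads in I-BET151 livers, too few to be tested. Its highest liver was vehicle mouse 3 followed by vehicle mouse 4, the same mice as for Cnpy1, and every vehicle liver had more En2 reads than every healthy liver. In CPM, 14.2% of the tested genes, which do not include En2, showed such a separation. Rbm33, the gene on the other side, had group means of 65.9 to 67.8 CPM and passed in neither comparison.

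**Figure D4:**
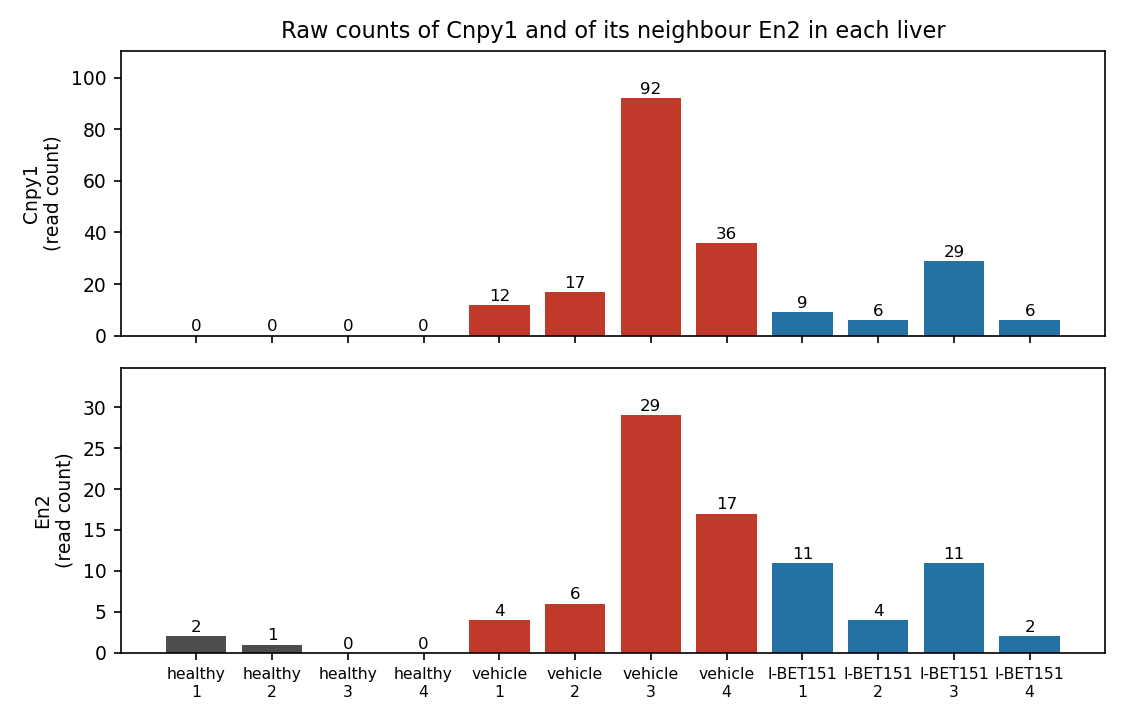
Raw read counts (vertical axes) of Cnpy1 and of its neighbour En2 in each of the 12 livers, with the count above each bar and colours for healthy, vehicle and I-BET151 mice. Both genes are highest in vehicle mice 3 and 4, with 92 and 36 reads of Cnpy1 and 29 and 17 reads of En2.

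Most neighbours of the other genes were silent. Fgf6 next to Fgf23, Gm18294 and Gm23897 next to Vmn2r3, Gm37377 and Sprr4 next to Sprr1a and 4933402N03Rik next to Dmbt1 had no reads in any liver. Tigar, 3.71 kb from Fgf23 and on the opposite strand, had 10.9 ± 1.13 CPM in healthy and 13.0 ± 1.74 CPM in vehicle livers (SD, n = 4; edgeR, adjusted p = 0.280), and the protease gene Htra1 next to Dmbt1 had 1.45 ± 0.226 and 2.31 ± 0.413 CPM (adjusted p = 0.285). The lowest vehicle liver of Htra1, at 1.73 CPM and 72 reads, lay barely above the highest healthy one, at 1.7 CPM and 80 reads. Of all genes tested, 14.2% had every vehicle liver above every healthy one. In the receptor cluster of Vmn2r3 on chromosome 3, Vmn2r1 had at most 10 reads in any liver, Vmn2r2 and Vmn2r4 at most 5, and Vmn2r5, Vmn2r6 and Vmn2r7 none.

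In the small proline-rich family, Sprr1b, Sprr3, Sprr4 and the 7 genes Sprr2d to Sprr2k on the list had no reads in any liver, whereas the Sprr2a genes, near-identical copies among which unique reads may be divided unevenly, had reads in STAM livers. Summed over Sprr2a1, Sprr2a2 and Sprr2a3, healthy mice had 0, 0, 1 and 0 reads, vehicle mice 24, 68, 50 and 74 and I-BET151 mice 151, 77, 69 and 27, without overlap between STAM and healthy livers. Of all genes tested, 14.2% separated every vehicle from every healthy liver in CPM, a share that does not take in the I-BET151 livers. Both copies that could be tested, Sprr2a1 (fitted log2 fold change 6.56) and Sprr2a2 (6.31), passed the filter on low counts through STAM livers alone, and Sprr2a1 also met the condition by which the 5 genes were chosen, so these values are a description. Ivl, a scaffold of the envelope, had 0 reads in healthy livers, 1, 2, 6 and 2 in vehicle and 0, 6, 0 and 1 in I-BET151 livers, and Sprr2b had 0 in healthy, 0, 2, 7 and 3 in vehicle and 4, 1, 2 and 0 in I-BET151 livers, both too few to be tested. Of the other envelope genes, Ppl and Evpl, which anchor keratins at cell junctions, rose 1.24 ± 0.18 (adjusted p = 0.00151) and 1.14 ± 0.28 (adjusted p = 0.0287) on the log2 scale (SE; edgeR), the call of Evpl being lost when any of healthy mice 2, 3 and 4 or vehicle mice 2, 3 and 4 was left out and with library totals (adjusted p = 0.0582). None of the 7 tested genes of this list passed between I-BET151 and vehicle livers.

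Of the SRCR relatives of Dmbt1, 5 of 15 tested rose in vehicle livers, beside 5.72% of all genes tested. The median log2 fold change of the list was 0.79, beside 0.0089 over all genes. Marco, a scavenger receptor of macrophages, rose by a log2 fold change of 1.95 ± 0.52 (SE; edgeR, adjusted p = 0.0374). The lymphocyte receptors Cd5 and Cd6 rose by 1.91 ± 0.38 and by 1.46 ± 0.33 (edgeR, adjusted p = 0.0165 for Cd6). Cd5 passed the filter on low counts through STAM livers alone, so its rise is a description. The collagen cross-linking enzyme Loxl2 rose by 1.16 ± 0.22 (edgeR, adjusted p = 0.00668) and Lgals3bp, a galectin ligand, by 0.92 ± 0.16 (adjusted p = 0.00475). The call of Marco was lost when any of healthy mice 2, 3 and 4 or vehicle mice 3 and 4 was left out, and that of Cd6 without healthy mouse 2 or 3 or vehicle mouse 3. Marco had 908, 1026, 3792 and 1473 reads in vehicle and 4318, 849, 792 and 2487 reads in I-BET151 livers, so that vehicle mouse 3 and I-BET151 mouse 1 were its highest livers as they were for Dmbt1. Unlike Dmbt1, Marco was expressed in healthy livers, at 222 to 636 reads. Of the known binding partners of Dmbt1, 1 of 7 tested rose, beside the same 5.72% of all genes. It was the galectin Lgals3 (log2 fold change 1.58 ± 0.33, SE; edgeR, adjusted p = 0.0126), whose call was lost without healthy mouse 3. In I-BET151 against vehicle livers Cd5 had a log2 fold change of -1.59 (adjusted p = 0.136) and Cd6 one of -1.27 (adjusted p = 0.168, edgeR), which missed the threshold, and DESeq2 gave an adjusted p of 0.0367 for both.

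**Figure D5:**
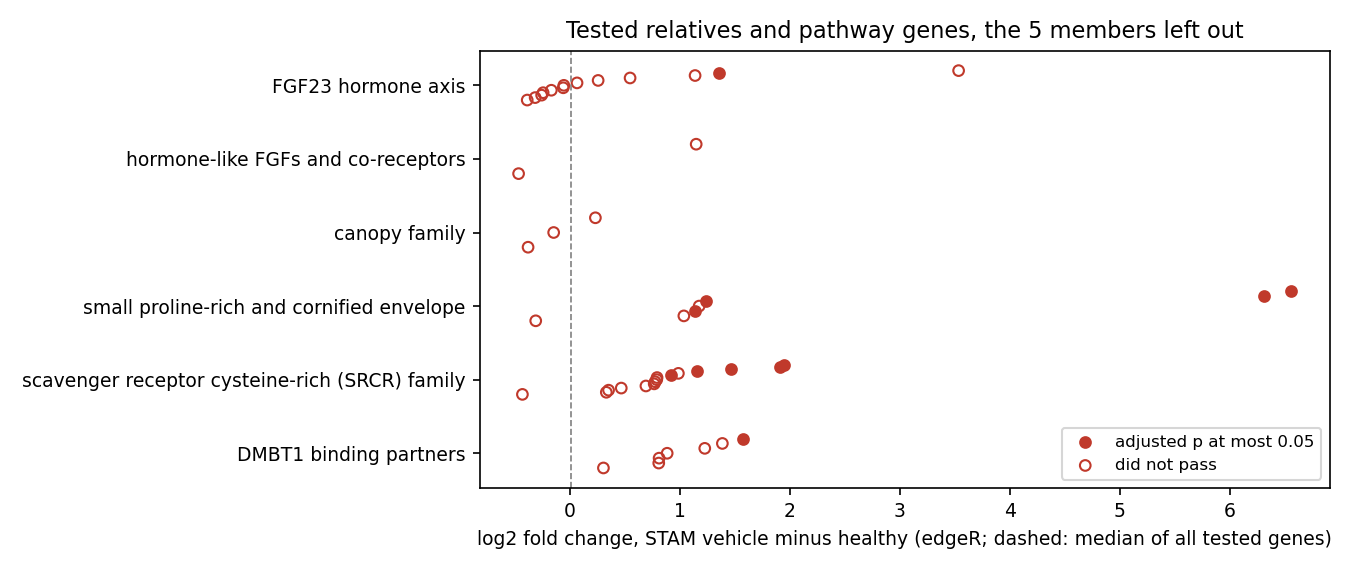
Log2 fold change of vehicle against healthy livers (horizontal axis) for the tested relatives and pathway genes in 6 lists (vertical axis), with filled points for an adjusted p of at most 0.05 and a dashed line at the median of all tested genes. The filled points at the far right are Sprr2a1 at 6.56 and Sprr2a2 at 6.31, and no filled point lies below 0.

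The 16823 tested genes were searched for those most like each of the 5 over the 12 mice, by the mean absolute difference of log2 CPM (prior count 2) after each gene was centred on its mean. Fgf23 and Vmn2r3 were each other's nearest gene, with a mean difference of 0.359, and Sprr1a was second to Vmn2r3 at 0.438. Aqp7, a channel for glycerol, was among the 3 nearest of Fgf23 (0.481), Vmn2r3 (0.462) and Sprr1a (0.406), with 1 to 3 reads in healthy, 71, 32, 179 and 82 reads in vehicle and 91, 51, 80 and 68 reads in I-BET151 livers. Car4 (0.57) followed for Fgf23, and Ifi27l2b, a gene of an interferon-inducible family, was nearest to Sprr1a (0.365), followed by Aqp7 and Insyn1 (0.424). Cnpy1 was nearest to the aldehyde dehydrogenase gene Aldh3b3 (0.457), the macrophage elastase Mmp12 (0.534) and the antiviral gene Oas3 (0.541), and the closest of the other 4 genes, Sprr1a, ranked 54. Dmbt1 had Gm379 (0.584), Gipc2 (0.593) and Ifi27l2b (0.603) as its nearest genes. Since this measure includes the contrast of healthy with STAM livers that chose the 5 genes, the likeness is a description over these mice.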

How the data were processed

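Liver RNA of 12 mice was sequenced from a stranded mRNA kit as paired reads. The authors aligned the reads with STAR 2.5.1b to mm10 and deposited whole-number counts per gene and mouse without normalization, counted by HTSeq per the labels and by featureCounts per the file labels, from uniquely mapped reads. The annotation release and the use of strand are not given in the sources used here. Symbols, positions and exon lengths were taken from GENCODE M21 by gene identifier (47310 of 47729 matched), and promoters from RefSeq, which had windows for 4 of the 5 genes.

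All 12 mice entered 1 fit in edgeR 4.0.16 (R 4.3.3) with TMM normalization, filterByExpr (minimum count 10, 16823 genes tested), the quasi-likelihood test and Benjamini-Hochberg adjustment, called at an adjusted p of 0.05 where vehicle livers were compared with healthy ones and of 0.1 where I-BET151 livers were compared with vehicle ones. All 5 genes passed the filter, through the STAM livers alone. The standard error is the size of the log2 fold change divided by the square root of F, and intervals are at 95%. The study's methods name DESeq2, which was run here (1.42.0) as an alternative. The other alternatives were RLE factors, library totals, other filters on low counts, fits of the compared groups alone, a replicate block, the lane (read from the file labels) as a covariate and each mouse left out. For the lists, all but DESeq2, the absent filter and the block were added after seeing the data.

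The 5 genes and the lists were chosen with earlier results of these data known. Genes are named if they are among the 5, pass a threshold on a list (up to 5 a list), are receptors or relatives of the 5, lie next to them, are among the 3 most like each of them, or follow them in fitted fold change. Total counts per mouse were 34711229 to 53365596, and intervals and limits at a count of 0 cover counting error only. No pair of mice of a group agreed within sampling noise (chi-square per degree of freedom 30.9 to 650). The study took livers of separate mice, so p-values measure the spread between animals. The fits were tested on simulated counts.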

Additional observations from a re-analysis of the deposited data

Results flagged for a closer look

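In groups of 4 mice, a highest or lowest liver was taken to stand apart where its gap to the nearest other mouse took a larger part of the range of the group than Dixon's 95% critical value. Over 35 genes and 91 groups with more than 3 reads, 15 values stood apart. The critical value allows about 1 in 20 groups, a rate that holds for independent values from a normal distribution. These groups share the same 12 livers and many hold low counts, so the 15 cannot be set against that rate. The vehicle values of the 5 genes also served to choose them, so the flags are a description. Of the 5 genes, Vmn2r3 stood apart in vehicle mouse 3 at 2.34 CPM (next 0.509) and in I-BET151 mouse 1 at 1.96 CPM (next 0.843), and Cnpy1 in I-BET151 mouse 3 at 0.52 CPM (next 0.181). I-BET151 mouse 3, the library with the high TMM factor, also stood apart as highest for Fgfr3 (119 CPM), Evpl (4.11 CPM), Htra1 (5.41 CPM) and Rbm33 (106 CPM) and as lowest for Cnpy2 (18.8 CPM). Vehicle mouse 3 stood apart as highest for Lgals3 (25.3 CPM) and Aldh3b3 (1.74 CPM), and vehicle mouse 1 as lowest for Sprr2a1 (0.144 CPM). Among healthy mice, mouse 1 was highest for Loxl2 (6.30 CPM) and Lgals3 (6.51 CPM) and mouse 3 lowest for Fgfr3 (28.3 CPM), and I-BET151 mouse 4 was lowest for Car4 (0.207 CPM).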

How the results depend on the processing

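For I-BET151 against vehicle, none of the 5 genes passed an adjusted p of 0.1 in any of 100 results under other settings, the lowest being 0.148 for Cnpy1. The direction held in 89 of them. Fgf23 turned to 0.11 with library totals and to 0.44 with the replicate block, and Dmbt1 to -0.27 with the replicate block and to -0.14 when the lane was a covariate. With 1 mouse left out the log2 fold change ran from -0.38 to 0.42 for Fgf23, -0.10 to 1.70 for Vmn2r3, -2.29 to -0.84 for Cnpy1, -0.75 to 0.55 for Sprr1a and -0.89 to 0.89 for Dmbt1. Same-numbered mice did not deviate together from their group means (correlations of -0.351 to 0.0933 over 12 pairs), so the replicate block rests on a shared number only. Mean levels of the 5 genes moved by less than 1 SD under other scaling.

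The number of genes called for vehicle against healthy, 1195, became 1910 with DESeq2, 3879 with only those groups fitted, 37 with the lane and 742 with the replicate block. It ran from 546 to 3779 with 1 mouse left out, moving by over 1.5 times without healthy mouse 2 (569), 3 (546) or 4 (588), vehicle mouse 3 (546) or 4 (672) and I-BET151 mouse 3 (3779). Library totals moved the share of higher calls from 80.6% to 95.4% of 1319, the fit of only those groups to 53.8% and the fit without I-BET151 mouse 3 to 53.7%. For I-BET151 against vehicle, 59 became 268 with DESeq2, 6 with library totals, 101 without a filter, 8 with only those groups, 0 with the lane and 10 with the replicate block. It ran from 13 to 403, moving without vehicle mouse 2 (24) or 4 (13) and I-BET151 mouse 1 (13), 2 (103), 3 (403) or 4 (33), and the share of higher calls, 27.1%, was 15.4% without vehicle mouse 4 and 38.5% without I-BET151 mouse 3. The 11 list genes called for vehicle against healthy became 19 with DESeq2, 24 with only those groups (3 lower), 0 with the lane and 7 to 23 with 1 mouse left out, and the 0 for I-BET151 against vehicle became 2 with DESeq2 and 0 to 3. Of the called list genes, Evpl (adjusted p = 0.0733, edgeR) and Marco (0.0748) were lost with the replicate block. The causes were not tested. The 5 genes had 2 to 154 reads in each STAM liver, which limits the precision of each value.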
